A study of Rattus norvegicus with 14 samples.

Results

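The genes described are 10 protein-folding genes of rat liver: Hspa5, Hsp90b1, Calr, Pdia3 and Pdia4 of the endoplasmic reticulum (ER), Hspa8, Hsph1 and Hsp90aa1 of the cytosol, and Hspd1 and Hspe1 of the mitochondria. They were chosen by gene symbol, as every probe set whose platform symbol was or contained a listed name. This gave 23 of the 8740 probe sets and 10 of the 5147 symbols on the array. The livers came from male rats aged 74 days that had been kept for 53 days on a vitamin A-deficient or a vitamin A-sufficient diet. Strain, diet composition and housing are not given in the labels, and all animals of both groups were described as fed a special diet. Each diet had 7 Affymetrix arrays of total RNA, 3 with roughly 2 µg of starting RNA (numbers 1, 2 and 4) and 4 with roughly 10 µg (numbers 1 to 4). The mean of the arrays that share a diet and a number is called a liver here, so n = 4 livers per diet, and liver 3 of each diet rests on its 10 µg array alone. Whether such arrays came from the same animal is not in the labels, so the p-values describe variation between these means.

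Chaperones hold newly made or damaged proteins in a state from which they can fold. In the ER lumen, through which the liver sends its plasma proteins, BiP (Hspa5) binds exposed chains, GRP94 (Hsp90b1) acts on later clients, calreticulin (Calr) holds glycoproteins, and the disulfide isomerases Pdia3 and Pdia4 form and rearrange disulfide bonds. The unfolded protein response raises these genes together when unfolded proteins build up, whereas the cytosolic heat shock response acts through the transcription factor HSF1. Vitamin A is the dietary source of retinoic acid, the ligand of nuclear receptors that act on transcription in the liver.

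Sequence next to the start sites shows which of these genes carry the letters of the elements known for each response. Of the 10 genes, 8 had an entry in the RefSeq promoter table of the GRCr8 build. Pdia3 and Hsp90aa1 had none and were not searched. In the 250 bases before each start, on both strands, 2 motifs were searched: the ER stress response element, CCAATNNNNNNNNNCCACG, and 3 alternating units of the heat shock element (GAA, any 2 bases, TTC, any 2 bases, GAA). The ER element was present before Hspa5, Calr and Hsp90b1, the last with 2 copies, and before 22 of all 33469 promoters in the table (0.0657%). The matched bases are in capitals.
Hspa5, chr3:38452958-38453006, plus strand: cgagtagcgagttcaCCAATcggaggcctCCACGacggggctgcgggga
Calr, chr19:40213120-40213168, plus strand: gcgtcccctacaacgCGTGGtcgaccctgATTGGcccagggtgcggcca
Hsp90b1, chr7:23012332-23012484, minus strand: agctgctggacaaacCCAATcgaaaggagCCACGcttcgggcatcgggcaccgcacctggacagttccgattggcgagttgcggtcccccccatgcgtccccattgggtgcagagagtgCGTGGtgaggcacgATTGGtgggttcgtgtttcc

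The heat shock element was found before Hsph1, before Hspa8 in 2 places, and in the stretch between Hspd1 and Hspe1, neighbours on chromosome 9 that are read in opposite directions. It occurred in 222 of the 33469 promoters (0.663%). In the stretch that Hspd1 and Hspe1 share, 2 matches overlap, 1 on each strand, and the capitals mark their fixed letters.
Hsph1, chr12:10427317-10427359, plus strand: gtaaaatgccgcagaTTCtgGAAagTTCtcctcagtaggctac
Hspa8, chr8:50080286-50080486, plus strand: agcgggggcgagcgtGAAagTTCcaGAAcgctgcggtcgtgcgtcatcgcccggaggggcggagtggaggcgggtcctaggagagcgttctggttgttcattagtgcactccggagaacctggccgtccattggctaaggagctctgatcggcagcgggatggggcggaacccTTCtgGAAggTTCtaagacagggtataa
Hspe1 and Hspd1, chr9:64084247-64084294, plus strand: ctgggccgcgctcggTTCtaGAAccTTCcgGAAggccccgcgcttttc
These are matches of letters and not shown sites of binding, and for Pdia4 neither run of letters lay in the window.

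No chaperone passed the test between the diets, and the differences that came nearest were all on the lower side and all in ER genes. Levels are log2 of the scaled intensity plus 16, and differences are deficient minus sufficient, so they understate the change of dim genes. Of the 23 probe sets, 22 passed the filter on low signal and 0 had a limma adjusted p under 0.05, against 1.72% of all 5244 probe sets tested. An unadjusted p under 0.05 was reached by 4 of the 22, against 14.5% of all tested, and all 4 were lower in deficient livers, against 5.42% of all tested. These were both tested probe sets of Hspa5, 1 of 3 of Calr and 1 of 2 of Pdia3. In 2 of the 22 every deficient liver lay under every sufficient liver, against 3.07% of all tested, and in 0 every deficient liver lay above, against 5.84%. Differences below 0 were found for 18 of the 22, against 41.6% of all tested, with a median over all tested of 0.04.

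The livers carried the markers of liver tissue, and signals of other cells differed between the diets. All 12 hepatocyte markers tested lay between percentile 86.2 and percentile 100 of the probe set means. Their summed scaled intensity was 248910 to 284450 in deficient livers and 208790 to 250970 in sufficient livers, with 0 of 12 passing. Of these 12 differences 0 lay below 0, against 40.7% of all genes, with a median of 0.21. An unadjusted limma p under 0.05 was reached by 5 of the 12. Over all genes, 1.88% were called and 14.7% had an unadjusted p under 0.05. Erythroid markers summed to 3981 to 6782 in deficient livers and 12797 to 15884 in sufficient livers, and 4 of 6 were called lower. Macrophage markers summed to 9525 to 12651 in deficient and 7602 to 8401 in sufficient livers, with 1 of 8 called higher. The hepatocyte sums overlapped between the diets, and the erythroid and macrophage sums did not. Endothelial markers summed to 543 to 688 in deficient and 787 to 985 in sufficient livers, with 1 of 5 called lower, and did not overlap. Only 3 of these 5 differences lay below 0, with a median of -0.02, so the markers did not fall as a set. Cholangiocyte markers summed to 3798 to 5245 in deficient and 3186 to 3567 in sufficient livers, also without overlap, with 0 of 6 called, 4 of 6 at an unadjusted p under 0.05 and a median difference of 0.41. Of stellate and mesenchymal markers, 1 of 10 was called higher, while 0 of 6 T and NK cell and 0 of 5 proliferation markers were called. No neutrophil marker passed the filter, of 4 on the array. In bulk RNA, fewer cells of a type and less RNA per cell cannot be told apart, and the part of these shifts in the chaperone values was not tested. As a measure of RNA integrity, the GAPDH ratio of 3' over 5' probe sets was 0.06 higher in deficient livers on the log2 scale (p = 0.743 in an exact two-sided permutation test). The beta-actin ratio differed by -0.10 (exact p = 0.457), where 4 livers against 4 allow no p under 0.0286.

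Hspa5, the ER member of the Hsp70 family and the chaperone that holds the stress sensors of the ER inactive, had the lowest p of the 10 genes. By probe set 1 (M14050_s_at) its level was 11.21, 11.70, 11.64 and 11.28 in deficient livers 1 to 4, against 11.85, 11.89, 11.76 and 11.80 in sufficient livers 1 to 4. By probe set 2 (S63521_i_at) it was 9.69, 10.02, 9.82 and 9.70 in deficient livers, against 10.07, 10.33, 10.51 and 10.31 in sufficient livers. The groups did not overlap on either probe set, and deficient livers 1 and 4 were the lowest on both. The difference was -0.37 (SE 0.13, 95% interval -0.65 to -0.08, 1.29-fold lower) on probe set 1, with a limma adjusted p of 0.216. On probe set 2 it was -0.50 (SE 0.13, interval -0.78 to -0.21, 1.41-fold lower), with an adjusted p of 0.0922. With all 14 arrays fitted and each diet's number as a random block, probe set 2 passed at -0.48 (limma adjusted p = 0.0346), in a fit that called 4.77% of all probe sets. With the 14 arrays as separate samples, which called 6.66%, both Hspa5 probe sets and Calr probe set 2 passed. That fit counts arrays of 1 diet and number as independent, although their deviations correlated (r from 0.202 to 0.351). Its p-values thus understate the uncertainty, and it is no equal alternative to the fit on averaged livers. Whether Hspa5 was called turned on how the arrays of a liver were combined. Averaged over both probe sets, Hspa5 differed by -0.43 (limma adjusted p = 0.112). Array by array, the scaled intensity of probe set 1 ran from 2210 to 3555 over 7 deficient arrays and from 3397.5 to 4101 over 7 sufficient arrays. A single deficient array, that of liver 2 at 2 µg, lay inside the sufficient range. Another Hspa5 probe set (S63521_r_at) was too dim to be tested, at 5.39 ± 0.20 in deficient and 5.40 ± 0.36 in sufficient livers (SD, n = 4 each), under the filter at 6.20.

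Calr, the lectin-like chaperone and calcium store of the ER, gave differences below 0 on all 3 probe sets. On probe set 2 (D78308_g_at) its level was 10.42, 10.70, 10.98 and 10.68 in deficient livers, against 11.06, 10.91, 11.01 and 11.27 in sufficient livers. Deficient liver 3 lay above sufficient liver 2, so the groups overlapped by that pair. The difference was -0.37 (SE 0.14, unadjusted p = 0.0212, limma adjusted p = 0.254). Probe set 1 (D78308_at), which is built on the same sequence entry, differed by -0.18 (SE 0.10, interval -0.40 to 0.05) and probe set 3 by -0.19 (SE 0.15, interval -0.51 to 0.14). Both intervals hold 0 as well as the value of probe set 2. Probe set 3 gave -0.092 without deficient liver 1 and -0.30 without sufficient liver 2.

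Pdia3, the disulfide isomerase that works with calreticulin on glycoproteins, had 1 deficient liver within the sufficient range on each of its probe sets. By the dimmer probe set 1 (rc_AA892637_at) its level was 6.87, 7.30, 7.10 and 7.44 in deficient livers, against 7.39, 7.64, 7.67 and 7.61 in sufficient livers. Deficient liver 4 lay above sufficient liver 1, and no other pair overlapped. The difference was -0.40 (SE 0.16, limma adjusted p = 0.273). By probe set 2 (X12355_s_at) the level was 10.45, 10.71, 10.20 and 10.41 in deficient livers, against 11.03, 10.64, 10.52 and 10.66 in sufficient livers. Here deficient liver 2 was the one within the sufficient range, above every sufficient liver but liver 1. The difference was -0.27 (SE 0.15, adjusted p = 0.455). The mean of both probe sets did not overlap between the diets and differed by -0.34 (limma adjusted p = 0.244).

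Hsp90b1, the ER member of the Hsp90 family, and Pdia4 did not separate the diets. On Hsp90b1 probe set 2 (S69315_at) the level was 11.87, 12.45, 11.87 and 11.72 in deficient livers, against 11.81, 11.71, 11.87 and 12.54 in sufficient livers. The highest liver of each diet, deficient 2 and sufficient 4, stood about equally far above the others. The difference was -0.01 with an interval of -0.45 to 0.44, and the other Hsp90b1 probe sets gave -0.04 (SE 0.18) and 0.00 (SE 0.16). Pdia4 was at 10.19, 10.25, 10.41 and 10.28 in deficient livers, against 10.24, 10.02, 10.68 and 10.52 in sufficient livers. Its deficient values lay inside the sufficient range, at a difference of -0.08 (interval -0.41 to 0.24). Among the 3 genes with the ER element before their start, the differences were thus -0.37 and -0.50 for Hspa5, -0.37 to -0.18 for Calr and -0.04 to 0.00 for Hsp90b1.

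**Figure D1:**
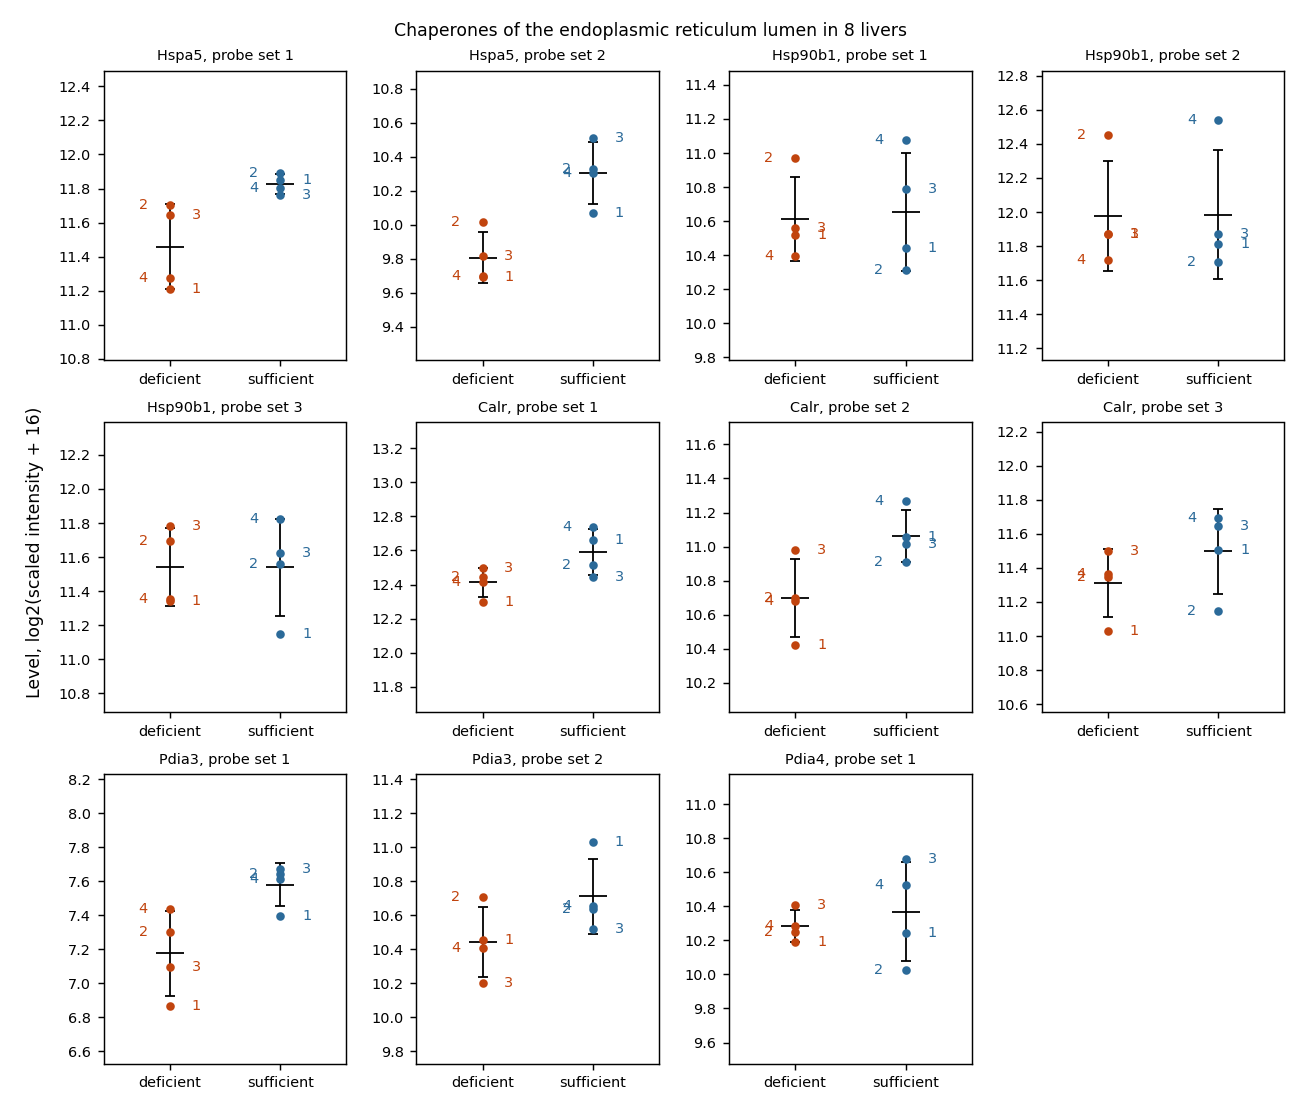
Level of each tested ER probe set, log2 of the scaled intensity plus 16, in 4 deficient livers (left, red) and 4 sufficient livers (right, blue), each point numbered by liver, with bars for the mean and SD; every panel has its own range of levels. The groups stand apart for both Hspa5 panels and overlap in the other 9.

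Taken over the 11 tested ER probe sets, which stand for 5 genes, 10 differences lay below 0, against 41.6% of all tested. Their median was -0.19, and probe sets of 1 gene are not independent of each other. The single one above 0 was Hsp90b1 probe set 3. Deficient liver 1 was the lowest deficient liver on 8 of the 11, and sufficient liver 4 the highest sufficient liver on 6. Leaving out 1 liver at a time gave medians of -0.29 to -0.13, with 8 to 11 of the 11 below 0. B and plasma cell markers, which rest on Cd74 and Cd79b alone, summed to 2822 to 5457 in deficient and 1792 to 2949 in sufficient livers, and these sums overlapped. Of the markers, 0 of 2 were called and 2 of 2 had an unadjusted limma p under 0.05, with a median difference of 0.70. Their part in the ER values was not tested.

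**Figure D2:**
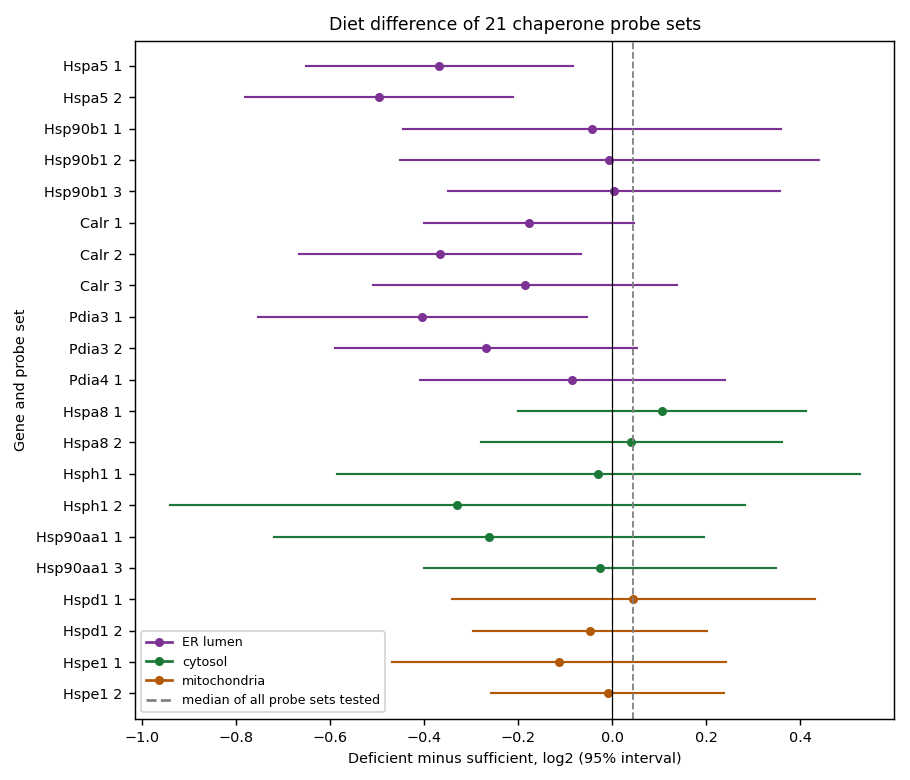
Difference between the diets, deficient minus sufficient on the log2 scale, with its 95% interval, for 21 probe sets of the 10 genes, coloured by compartment; the probe set annotated to 10 genes is left out. The dashed line is the median of all probe sets tested, 0.04, and the intervals of Hspa5 1 and 2, Calr 2 and Pdia3 1 lie below 0.

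The cytosolic chaperones gave no difference beyond the spread between livers. Hspa8, the constitutive Hsp70 that serves most cytosolic proteins, was measured by 2 probe sets, each annotated to both Hspa8 and Haus8l2. On probe set 1 its level was 12.87, 12.98, 13.08 and 13.04 in deficient livers, against 12.46, 12.95, 13.12 and 13.03 in sufficient livers. Sufficient liver 1 stood below the other 7, which lay within a narrow band. The differences were 0.11 (interval -0.20 to 0.41) and 0.04 (interval -0.28 to 0.36).

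Hsph1, the Hsp110 protein that recharges Hsp70 with nucleotide, varied most within a diet among the genes with a probe set of their own. Its level on probe set 2 (rc_AI236601_at) was 9.03, 9.97, 10.13 and 9.48 in deficient livers, against 9.25, 10.15, 10.17 and 10.38 in sufficient livers. Liver 1 was the lowest in both diets. The SD within a diet was 0.50, at the 90.6th percentile of the probe sets tested, whose median SD was 0.24. The difference of -0.33 (SE 0.28, limma adjusted p = 0.669) lay within that spread, and was -0.58 without sufficient liver 1 and -0.13 without deficient liver 1. Probe set 1 gave -0.03 (SE 0.25).

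Hsp90aa1, the stress-inducible cytosolic Hsp90, has no probe set to itself, since 2 are annotated also to a pseudogene, Hsp90aa1-ps17. On probe set 3 (rc_AI176546_at) the level was 11.97, 12.17, 12.21 and 11.91 in deficient livers, against 11.58, 12.08, 12.42 and 12.30 in sufficient livers. The deficient livers lay between the lowest and the highest sufficient liver, and the difference was -0.03 (interval -0.40 to 0.35). Probe set 1 gave -0.26 (SE 0.21, limma adjusted p = 0.643), with deficient liver 2 at 9.34 far above the other 3, which lay at 8.43 to 8.49. Probe set 2 is annotated to 10 genes, among them the globins Hba-a2 and Hbb and ribosomal RNA. It had the widest spread within a diet of the 22, an SD of 1.16. Its difference was -0.88 (SE 0.61, limma adjusted p = 0.588), beside the lower erythroid sum given above. Deficient liver 2, at 9.85, lay above every sufficient liver. The part of globin RNA in the difference of -0.88 was not tested. That difference was -1.52 without deficient liver 2 and -0.34 without deficient liver 3. It is left out of the medians here, and without it 17 of 21 differences lay below 0, with a median of -0.08.

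That count rested on single livers. Without sufficient liver 3 it was 10 of 21, and without deficient liver 1 or sufficient liver 4 it was 13 of 21. With arrays scaled to 1 median it was 20 of 21, where 53.9% of all probe sets tested were below 0. That scaling also moved the calls over all probe sets to 17 higher and 60 lower in deficient livers, against 39 higher and 51 lower. The median of -0.08 ran from -0.20 without sufficient liver 2 to 0.0011 without sufficient liver 3. The median over the 6 cytosolic probe sets was -0.03, with 4 below 0, and ran from -0.18 without sufficient liver 1 to 0.077 without sufficient liver 4.

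The mitochondrial pair, Hspd1 (Hsp60), which forms the folding chamber of the matrix, and Hspe1 (Hsp10), its lid, did not separate the diets, and probe set 2 of each had the narrowest intervals outside the ER. On Hspd1 probe set 2 (X54793_at) the level was 11.79, 11.88, 12.11 and 12.08 in deficient livers, against 11.88, 12.07, 12.17 and 11.93 in sufficient livers. The difference was -0.05 (interval -0.30 to 0.20). Only deficient liver 1 lay outside the sufficient range. On Hspe1 probe set 2 (rc_AI170613_g_at) the level was 11.65, 11.65, 11.76 and 11.65 in deficient livers, against 11.55, 11.52, 11.76 and 11.91 in sufficient livers. Here the deficient livers sat inside the sufficient range, and the difference was -0.01 (interval -0.26 to 0.24). The other probe set of Hspd1 gave 0.04 (SE 0.18) and that of Hspe1 -0.11 (SE 0.16). The median over the 4 was -0.03, and ran from -0.074 without sufficient liver 1 to 0.015 without sufficient liver 3. Liver 3 was the highest of its diet on 3 of the 4 in both diets.

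**Figure D3:**
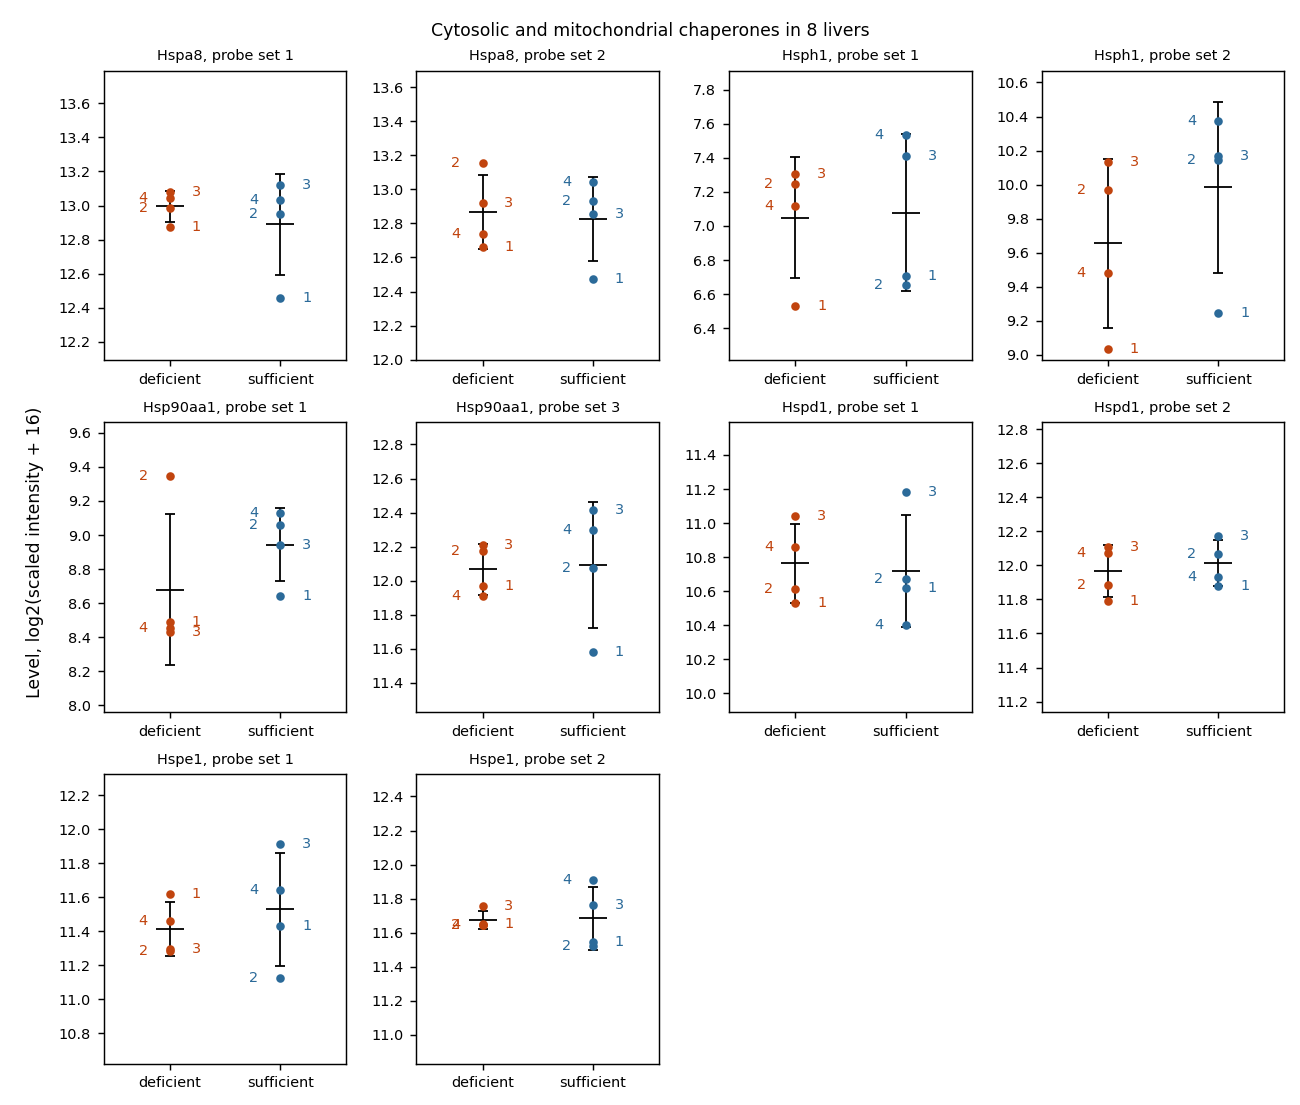
Level of each cytosolic and mitochondrial probe set, log2 of the scaled intensity plus 16, in 4 deficient livers (left, red) and 4 sufficient livers (right, blue), each point numbered by liver, with bars for the mean and SD; every panel has its own range of levels. The groups overlap in all 10 panels, and Hsph1 probe set 2 spreads widest in both diets.

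Other genes of ER folding and of the unfolded protein response were read with 1 probe set a gene, the brightest. Of 59 genes listed, 25 were on the array and 22 were tested, of which 1 fell and 0 rose by the limma test, against 1.88% of 3135 genes called either way. Differences below 0 were found for 15 of the 22, against 40.7% of all genes, with a median of -0.14, against 0.05 over all genes. Unadjusted p-values under 0.05 were reached by 3 of the 22, against 14.7% of all genes. These were Erp29, Pdia6 and Trib3, all lower in deficient livers, against 5.17% of all genes.

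Erp29, a thioredoxin-fold protein of the ER lumen that helps secretory proteins fold, was the gene that fell. Its level was 9.75, 9.80, 9.91 and 9.84 in deficient livers, against 10.36, 10.62, 10.34 and 10.75 in sufficient livers. All 4 deficient livers lay within a narrow band under all 4 sufficient livers. The difference was -0.69 (SE 0.12, interval -0.96 to -0.42, 1.62-fold lower, limma adjusted p = 0.0163), and the other Erp29 probe set gave -0.59 (SE 0.22, adjusted p = 0.246). The adjusted p was 0.0565 without deficient liver 4, 0.0534 without sufficient liver 2 and 0.103 on the 2 µg arrays alone, with differences of -0.70, -0.66 and -0.69.

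Pdia6, another disulfide isomerase of the lumen, was at 10.68, 11.21, 11.31 and 11.19 in deficient livers, against 11.53, 11.57, 11.37 and 11.58 in sufficient livers. These groups did not overlap either, at a difference of -0.41 (SE 0.14, limma adjusted p = 0.204). In the fit with the random block the limma adjusted p was 0.0483, at -0.45. Trib3, a pseudokinase induced late in the stress response, differed by -0.64 (SE 0.28, adjusted p = 0.331) on its brighter probe set and by 0.28 (SE 0.21) on the other. Sec61b, a subunit of the translocation channel, differed by -0.28 (SE 0.13) and the calcium-binding Calu by -0.23 (SE 0.11), Calu without overlap between the groups. The other tested genes of stress signalling went both ways without passing: Ddit3 (CHOP) differed by -0.47 (SE 0.24), Asns by -0.13 (SE 0.17), Atf3 by 0.01 (SE 0.15), Eif2ak3 (PERK) by 0.08 (SE 0.21) and Ppp1r15a (GADD34) by 0.25 (SE 0.17). The other 12 genes of the list ran from -0.30 for Serpinh1 to 0.30 for Dnajc1, with 8 below 0.

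**Figure D4:**
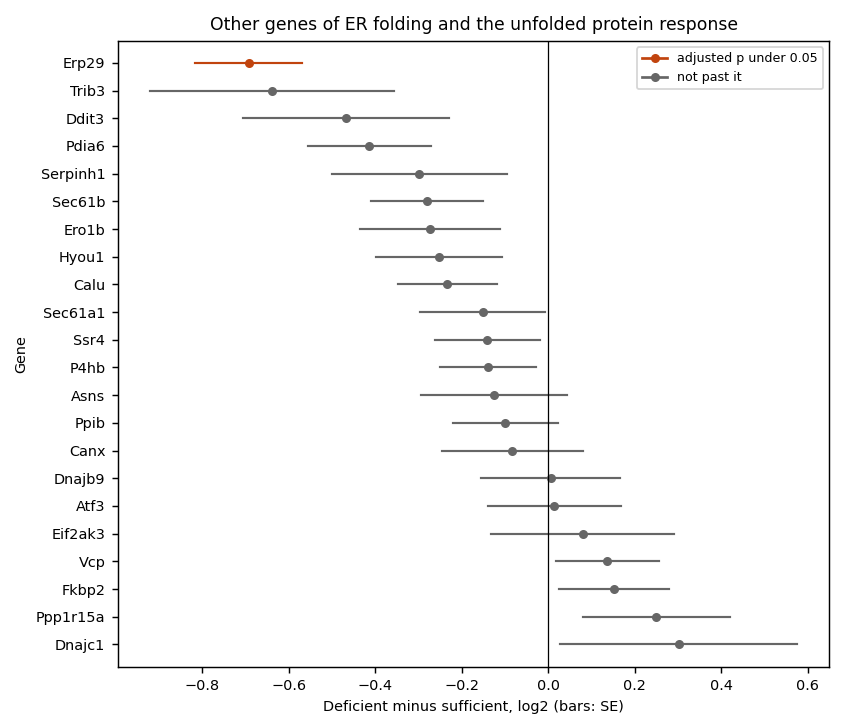
Difference between the diets, deficient minus sufficient on the log2 scale, with bars for the SE, for the 22 tested genes of ER folding and the unfolded protein response that are not among the 10, in order of the difference. Erp29, in red, passed the limma test at -0.69, and 15 of the 22 points lie below 0.

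Of 44 genes listed for the cytosolic heat shock response, 21 were tested and 0 were called, against 1.88% of all genes. An unadjusted limma p under 0.05 was reached by 0, against 14.7% of all genes, and the median was 0.04, against 0.05. The differences ran from -0.68 (SE 0.57) for Hspa1a to 0.48 (SE 0.46) for Cryab. Hsf1, the factor that drives the response, differed by 0.04 (SE 0.11), and Hsp90ab1, the constitutive Hsp90, by 0.07 (SE 0.12). The 4 with the smallest p were Hmox1, heme oxygenase, at 0.24 (SE 0.16), the small heat shock proteins Hspb2 at -0.25 (SE 0.17) and Hspb6 at 0.30 (SE 0.23), and the Hsp70 cofactor St13 at -0.18 (SE 0.12). A second, dimmer Hspb6 probe set gave 0.89 (SE 0.30, limma adjusted p = 0.199). Of the cytosolic folding ring TRiC and its partner prefoldin, 3 of 14 listed genes were tested and 0 were called, against the same 1.88%. Cct3 differed by 0.22 (SE 0.13), Pfdn2 by 0.16 (SE 0.13) and Cct6a by -0.14 (SE 0.19).

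Among other mitochondrial chaperones and proteases, 5 of 16 listed genes were tested and 0 were called, against 1.88% of all genes. An unadjusted limma p under 0.05 was reached by 1 of the 5, Hspa9, against 14.7% of all genes. Hspa9, the mitochondrial Hsp70 that pulls proteins through the inner membrane, was at 8.84, 9.13, 8.74 and 8.80 in deficient livers, against 10.05, 9.07, 9.57 and 9.24 in sufficient livers. Deficient liver 2 lay just above sufficient liver 2, and the other 3 deficient livers lay below all sufficient livers. The difference was -0.61 (SE 0.20, limma adjusted p = 0.175), while the other Hspa9 probe set gave -0.26 (SE 0.19). Phb2 differed by 0.14, Grpel1 by 0.09 and Trap1 by -0.09, the last at -0.0033 without deficient liver 2 and -0.19 without deficient liver 1.

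Likeness between genes was described by Pearson's r over the 8 livers, after each diet's mean was subtracted, among 3135 genes that share these arrays and their scaling. Hspa5 was read by its probe set 1 alone. The genes most like it on that probe set were Esrra (0.947), Git1 (0.940), Rdh16 (0.929), Slc40a1 (0.928) and Nrbp1 (0.920). Hspa8 was not compared, and Hsp90aa1 was read by probe set 3, annotated also to its pseudogene. Among the other chaperones, Hsph1 came nearest to Hspa5, at rank 226 (r = 0.591), followed by Calr (r = 0.450) and Hsp90b1 (r = 0.365). Below these came Pdia3 (r = 0.17), Hspd1 (r = 0.134), Hspe1 (r = -0.0328) and Pdia4 (r = -0.0511). Genes most like Hsp90aa1 were Igfals (0.938), Cs (0.932), Rab8a (0.924), Sdc2 (0.917) and Src (0.907). Hsph1 stood at rank 31 for Hsp90aa1 (r = 0.834) and Hspe1 at rank 134 (r = 0.697). The rest ran down from Pdia4 (r = 0.617), Hspd1 (r = 0.477), Hsp90b1 (r = 0.433) and Hspa5 (r = 0.213) to Calr (r = -0.132) and Pdia3 (r = -0.655). With 8 livers these are descriptions of the arrays and carry no test.

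The amount of RNA used was the other difference between the arrays. The fits for amount and for its interaction with diet took all 14 arrays as separate samples, without pairing the amounts. At 2 µg against 10 µg, 0 of the 22 probe sets passed (0% of all tested) and 3 had an unadjusted p under 0.05, against 6.62% of all tested. All 3 belonged to the ER. Calr probe set 3 averaged 11.17 at 2 µg and 11.58 at 10 µg, a difference of -0.41 (SE 0.12, limma adjusted p = 0.517) that was negative in 6 of 6 pairs of arrays. Calr probe set 2 differed by -0.34 (SE 0.11) and Pdia4 by -0.32 (SE 0.11), each also in 6 of 6 pairs. Hspa5 differed by 0.03 and 0.10 between the amounts. The difference between the diets was not shown to depend on the amount: 0 of 22 passed (0% of all tested), 0 had an unadjusted p under 0.05, against 1.83% of all tested, and no adjusted p was under 0.9995.

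At each amount alone, Hspa5 differed between the diets by -0.47 at 2 µg and -0.36 at 10 µg on probe set 1, and by -0.52 at 2 µg and -0.43 at 10 µg on probe set 2. Calr probe set 2 gave -0.46 at 2 µg and -0.38 at 10 µg. Pdia3 probe set 1 gave -0.22 at 2 µg and -0.50 at 10 µg. Hsph1 probe set 1 had the widest gap of the 21 probe sets, 0.26 at 2 µg and -0.22 at 10 µg (interaction 0.48, SE 0.45).

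**Figure D5:**
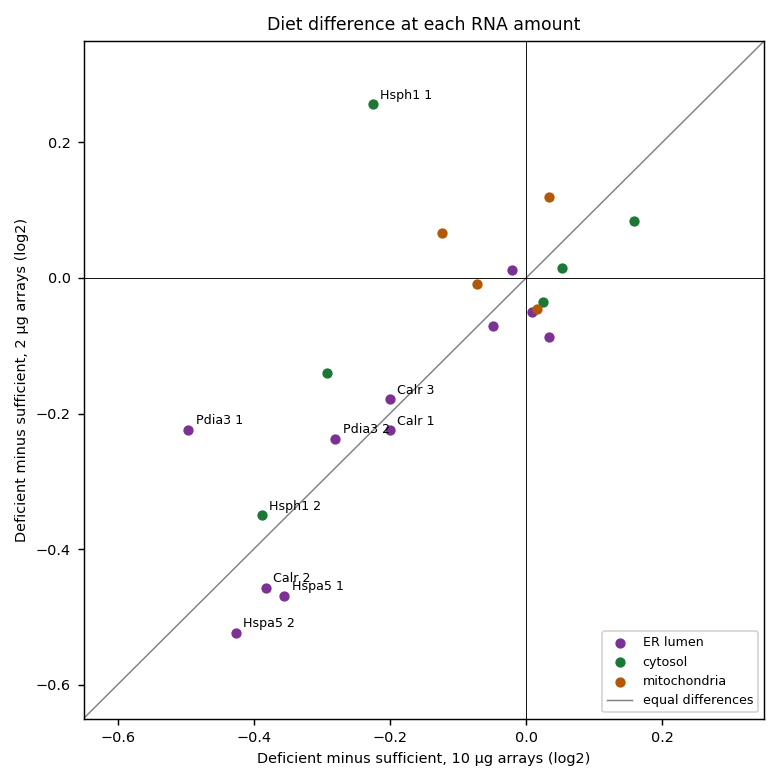
Difference between the diets, deficient minus sufficient on the log2 scale, on the 2 µg arrays (y axis) and on the 10 µg arrays (x axis) for 21 probe sets, with a line where both are equal. Hspa5, Calr and Pdia3 lie in the lower left, below 0 at both amounts, and Hsph1 probe set 1 lies farthest from the line.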

How the data were processed

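Per the labels, total RNA was purified on columns and labelled by Affymetrix's own protocol. The authors deposited a linear intensity for each probe set on 14 arrays; which program made it, and how it was normalized, is not given in the sources. Trimmed means of 1001.9 to 1002.1 show that these deposited intensities were already scaled, and array medians were 175.1 to 231. The number of arrays limits the precision.

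The 59 control probe sets were removed. Arrays were scaled to a 2% trimmed mean of 500, taken as log2(intensity + 16), and probe sets whose mean lay under the 40th percentile (6.20) were dropped. The shift between RNA amounts was removed and arrays of 1 diet and number were averaged. Fits used limma 3.58.1 in R 4.3.3 (lmFit, eBayes with trend), two-sided, with Benjamini-Hochberg adjustment over all 5244 probe sets at 0.05, and were tested on simulated data. Symbols came from the platform annotation.

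Deviations of arrays of 1 diet and number correlated across amounts (r from 0.202 to 0.351, 6 pairs), more than those of other numbers did (r from -0.254 to 0.124), so the number pairs them by the data, not by the labels. Values with that block stand beside the results they change.

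The members and lists were chosen with earlier results of these data known. By rule, the text names all members, genes of each list that passed, up to 4 more by smallest p, and the 5 most like Hspa5 and Hsp90aa1. Hsf1, Hsp90ab1, Hspa1a, Cryab, Ddit3, Asns, Atf3, Eif2ak3, Ppp1r15a, Serpinh1 and Dnajc1 were added with their values known. Alternatives covered scaling, pseudocount, filter, trend, RNA amount, blocks and leaving out each liver.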

Additional observations from a re-analysis of the deposited data

Results flagged for a closer look

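In 2 of the 46 groups of 4 livers formed by the 23 probe sets and 2 diets, the highest liver stood far from the other 3 by Dixon's criterion, and chance alone marks about 1 group in 20. Hspe1 probe set 2 was at 11.76 in deficient liver 3, against 11.65 in the other 3, a gap of 0.963 of the range, although that whole range was narrow. Hsp90aa1 probe set 1, annotated also to a pseudogene, was at 9.34 in deficient liver 2, against 8.43 to 8.49 in the other deficient livers, a gap of 0.937 of the range. Without deficient liver 2 the Hsp90aa1 difference was -0.49.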

How the results depend on the processing

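The count of called chaperone probe sets was 0 in every alternative for diet, RNA amount and interaction, except in 2 fits for diet. It was 3 with 14 separate arrays, counted as independent although those of 1 diet and number correlated, and 1 with the random block. Over all probe sets these 2 fits called 349 and 250, against 90. The number paired nothing across diets (r from -0.0763 to 0.0672), and with it as a fixed replicate block 0 chaperones and 77 of all probe sets were called. Among named list genes, Erp29 lost its call without deficient liver 4, without sufficient liver 2 and on 2 µg arrays alone, and Pdia6 gained one in both 14-array fits. With the array pairs as a replicate block, RNA amount called 0 chaperones.

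Signs turned for differences of 0.14 or less, and the cause was not tested. With a common median, Hsp90b1 probe set 3 was -0.065, Hspa8 probe set 2 -0.028 and Hspd1 probe set 1 -0.023. With quantile normalization, Hsp90b1 probe set 2 was 0.045, Hspe1 probe set 2 0.062 and Hsp90aa1 probe set 3 0.0055. On 2 µg arrays alone, Hsp90b1 probe set 2 was 0.012, Hsp90b1 probe set 3 -0.087, Hsph1 probe set 1 0.26 and Hspe1 probe set 1 0.067. On 10 µg arrays alone, Hsp90b1 probe set 1 was 0.0093, Hspe1 probe set 2 0.016 and Hsp90aa1 probe set 3 0.025. Hsp90b1 probe set 3 was -0.019 with separate arrays and -0.0099 with the random block.

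Leaving out 1 liver gave ranges that cross 0 for Hsp90b1 probe sets 1 (-0.16 to 0.099), 2 (-0.16 to 0.18) and 3 (-0.13 to 0.098), Pdia4 (-0.20 to 0.019), Hsph1 probe set 1 (-0.17 to 0.14), Hsp90aa1 probe set 3 (-0.20 to 0.081), Hspa8 probe sets 1 (-0.041 to 0.18) and 2 (-0.075 to 0.11), Hspd1 probe sets 1 (-0.059 to 0.20) and 2 (-0.096 to 0.011), Hspe1 probe sets 1 (-0.25 to 0.014) and 2 (-0.065 to 0.065), Grpel1 (-0.014 to 0.19) and Cct6a (-0.24 to 0.028). Some ranges on 1 side of 0 had an end over 1.5 times larger or smaller than the value with all livers. Among the members these were Calr probe set 3 (-0.30 to -0.092), Pdia3 probe set 2 (-0.36 to -0.16) and Hsph1 probe set 2 (-0.58 to -0.13). Hsp90aa1 probe sets 1 (-0.49 to -0.18) and 2 (-1.52 to -0.34) were also among them. In the lists they were Pdia6 (-0.48 to -0.28), Hmox1 (0.12 to 0.33), Hspb2 (-0.34 to -0.16) and Hspb6 (0.17 to 0.45). Pfdn2 (0.10 to 0.23), Phb2 (0.088 to 0.17) and Trap1 (-0.19 to -0.0033) complete these. By the same measure Calr probe set 2 (-0.46 to -0.27) and Pdia3 probe set 1 (-0.49 to -0.30) moved less. The GAPDH ratio ran from -0.043 to 0.13. Hspa5 ran from -0.45 to -0.28 and from -0.58 to -0.43. The 4 livers per diet limit all of these.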
